A study of Mus musculus with 24 samples.

Results

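The response of wild-type (WT) mouse lung to 2 weeks of neonatal hyperoxia was examined, gene by gene, in 6 of the 24 RNA sequencing samples of the series, the 3 lungs of WT pups kept in hyperoxia (WT-O2) and the 3 lungs of WT pups kept in room air (WT-RA). The members were chosen by the genotype and exposure on the labels. The pups were WT littermates of GSDMD-KO mice from matings of heterozygous C57/B6 parents, so no WT lung carried the knockout of the pore-forming protein gasdermin D. Both groups were exposed from postnatal day 1 to 14, WT-O2 to 85% oxygen and WT-RA to 21% oxygen, and lungs were collected on day 15, when alveoli are still being formed. Each library came from the lung of its own mouse. Lungs of GSDMD-KO pups with the same exposures, 3 in hyperoxia (KO-O2) and 3 in room air (KO-RA), entered the same statistical fit and are given beside the WT values. Litter, cage and sequencing day are not given in the sources used here, so they cannot be told apart from the exposure.

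A mouse is born with simple air sacs, and in its early postnatal weeks these are divided by septa carrying elastin-producing myofibroblasts, lipid-storing fibroblasts and a double capillary layer that later becomes single. High oxygen in this window damages DNA, proteins and lipids, and the resulting lung with few large alveoli and sparse capillaries is the usual mouse model of bronchopulmonary dysplasia, the chronic lung disease of preterm infants. Known arms of the response are p53, which halts the cell cycle after DNA damage, NRF2, which switches on antioxidant enzymes, and inflammatory recruitment of monocytes and neutrophils.

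The 6 libraries held 28763661 to 29489506 counts assigned to genes after rounding of the estimated counts. Pearson's r of log2 CPM (counts scaled to a common library size) between libraries ranged from 0.981 to 0.990 within WT-RA, from 0.986 to 0.987 within WT-O2 and from 0.951 to 0.960 between the groups. The mitochondrial share of the counts was 4.09% to 4.74% in WT-RA and 4.74% to 6.21% in WT-O2. Y-linked genes summed to 139 CPM in WT-O2 3 and to 2.15 to 3.70 CPM in the other 5 libraries, so 1 of the 3 WT-O2 lungs and none of the WT-RA lungs came from a male. WT-RA 3 differed from the other WT-RA lungs in genes described at the end.

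Groups were compared over 16819 genes by the quasi-likelihood test of edgeR, p values were adjusted by the Benjamini-Hochberg method, and every adjusted p here is from this test. Where a log2 fold change is given with ±, the second value is its standard error, with 3 mice a side. Levels are CPM after TMM scaling and always follow the order of mice 1, 2 and 3. Genes count as called when the adjusted p was below 0.1, the unadjusted p below 0.05 and the difference 2-fold or more. By this rule 11.6% of the tested genes were called, 5.04% higher and 6.57% lower in WT-O2, while 49.2% had an adjusted p under 0.1 whatever the size of the change. The median log2 fold change over all tested genes was -0.01. Among called genes the median size of the change was 1.49 on the log2 scale. A change of at least 4-fold was reached by 227 genes that rose and 262 that fell, and of at least 8-fold by 84 and 82. The response included abundant transcripts: of 2146 genes averaging 100 CPM or more, 73 were called higher and 92 lower. WT-O2 and WT-RA mice did not overlap for 1853 of the 1952 called genes, beside 49.8% of all tested genes.

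**Figure D1:**
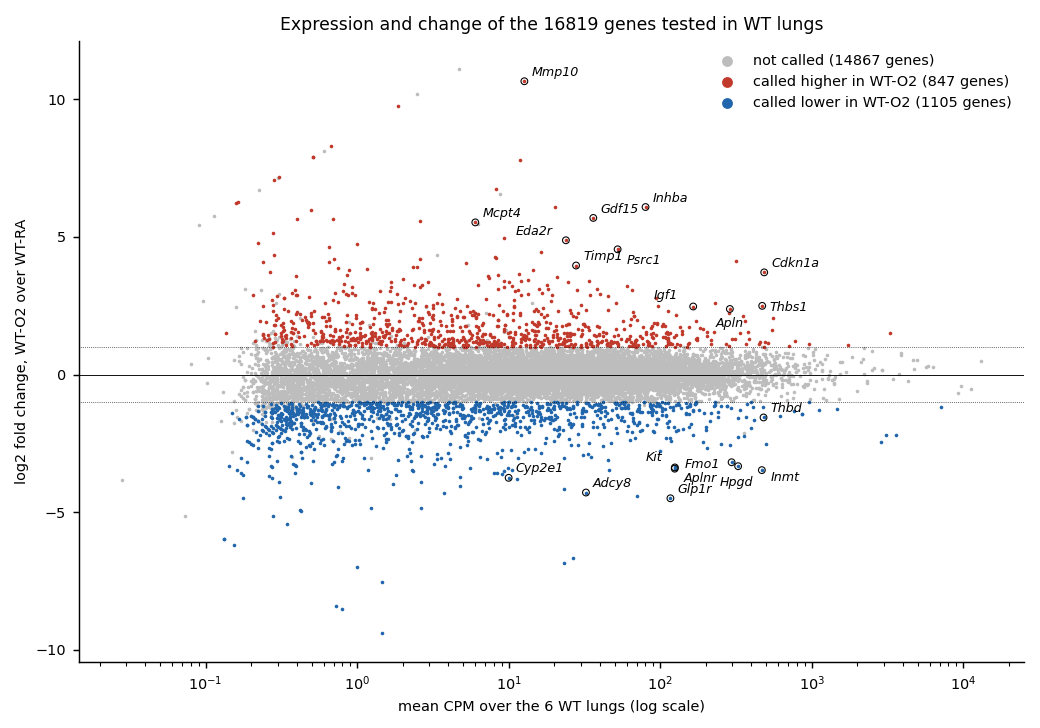
Each point is 1 of the 16819 genes tested, with its mean CPM over the 6 WT lungs (log scale) against its log2 fold change in WT-O2 relative to WT-RA; red and blue mark called genes, dotted lines a 2-fold change, and labelled genes are circled. Called genes lie at every level of expression, from Mcpt4 at a few CPM to Cdkn1a, Inmt and Hpgd among the abundant ones, and the most extreme values at the left belong to genes with few counts in a group.

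Large rises among genes averaging 5 CPM or more were in transcripts scarce in room air. Ano3 (ENSMUSG00000074968), of the anoctamin family, was at 0.209, 0.0673 and 0.0344 CPM in WT-RA and 27.2, 22.7 and 21.5 CPM in WT-O2, a log2 fold change of 7.80 ± 0.32 (edgeR adjusted p = 7.1e-10) that was 8.75 without WT-RA 1. Inhba (ENSMUSG00000041324), the subunit of activin A, a TGF-beta family ligand, was at 1.75, 2.62 and 2.58 CPM in WT-RA and 165, 138 and 171 CPM in WT-O2. This was a log2 fold change of 6.09 ± 0.20 (edgeR adjusted p = 3.6e-10). Fosl1 (ENSMUSG00000024912), a subunit of the AP-1 transcription factor, was at 0.140, 0.168 and 0.138 CPM in WT-RA and 10.5, 17 and 21.8 CPM in WT-O2, a log2 fold change of 6.75 ± 0.47. All 3 hyperoxia lungs were far above all 3 room air lungs for these genes. Bean1 and Chodl, membrane proteins better known from neurons, rose by 6.08 ± 0.49 and 4.97 ± 0.29 on the log2 scale. The mast cell protease Mcpt4 (ENSMUSG00000061068) went from 0.279, 0.370 and 0.103 CPM to 9.38, 12.0 and 14 CPM, and Mmp10, a stromelysin at 3 counts or fewer in every WT-RA library, was at least 247-fold higher. Mcpt4 belongs to a family of similar proteases, so reads may have been shared among its members.

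Among abundant genes, those averaging 100 CPM or more, large rises included Cdkn1a, Serpina3n, Thbs1, Igf1 and Apln. Serpina3n (ENSMUSG00000021091), an acute phase protease inhibitor, was at 96.4, 76.9 and 21.3 CPM in WT-RA and 336, 391 and 459 CPM in WT-O2, a log2 fold change of 2.61 ± 0.48 (edgeR adjusted p = 0.0024). For Serpina3n the WT-RA lungs were uneven, and WT-RA 3 was well below the other 2, yet no mouse overlapped. Igf1 (ENSMUSG00000020053), the growth factor, was at 37.9, 42.1 and 71.5 CPM in WT-RA and 276, 280.3 and 284 CPM in WT-O2, a log2 fold change of 2.47 ± 0.20 (edgeR adjusted p = 1.3e-06).

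The largest falls among abundant genes were Glp1r, Inmt, Kit, Aplnr, Hpgd and Fmo1. Glp1r (ENSMUSG00000024027), the receptor of glucagon-like peptide 1, was at 249, 224 and 199 CPM in WT-RA and 10.1, 11.2 and 8.44 CPM in WT-O2. This was a log2 fold change of -4.5 ± 0.14 (edgeR adjusted p = 4.5e-11), and every hyperoxia lung was below every room air lung by more than 10-fold. Hpgd (ENSMUSG00000031613), which inactivates prostaglandins, was at 638, 624 and 524 CPM in WT-RA and 71.2, 58.6 and 47.6 CPM in WT-O2, a log2 fold change of -3.33 ± 0.16 (edgeR adjusted p = 5.9e-09). The flavin monooxygenase Fmo1 (ENSMUSG00000040181) was at 643, 513 and 446 CPM in WT-RA and 68.5, 64.6 and 42.7 CPM in WT-O2, a log2 fold change of -3.19 ± 0.20 (edgeR adjusted p = 1.2e-07). Lower in level but similar in size were the falls of Adcy8, an adenylyl cyclase (-4.29), Vsnl1, a neuronal calcium sensor (-4.17), Fam162b (-3.79), the cytochrome P450 Cyp2e1 (-3.75) and the carbonic anhydrase Car14 (-3.59), all log2 fold changes. The fall of Chil4, a chitinase-like protein at 26.6, 337 and 41.9 CPM in WT-RA and 1.84, 1.58 and 15.7 CPM in WT-O2, depended on single lungs: the edgeR adjusted p was 0.036 with all 6 lungs and 0.18 without WT-RA 2 (log2 fold change -2.42), 0.11 without WT-O2 1 and 0.10 without WT-O2 2.

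Gene lists written from general knowledge were used to describe the response by function. Their counts are read against the background of 5.04% called higher and 6.57% called lower and carry no test of their own. Counts by an adjusted p under 0.1 alone are read against 24.5% with a positive and 24.7% with a negative change.

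p53 target genes had the highest share of calls among the stress lists. Of 20 members, 13 were called higher and 0 lower, with a median log2 fold change of 1.47, against -0.01 over all genes. Cdkn1a (ENSMUSG00000023067), which encodes the cell cycle inhibitor p21, was at 91.3, 58.6 and 57.0 CPM in WT-RA and 787, 963 and 962 CPM in WT-O2, a log2 fold change of 3.71 ± 0.26 (edgeR adjusted p = 8.2e-07). Gdf15 (ENSMUSG00000038508), a secreted stress hormone, was at 1.01, 1.45 and 1.65 CPM in WT-RA and 40.2, 55.1 and 118 CPM in WT-O2, a log2 fold change of 5.69 ± 0.48 (edgeR adjusted p = 1.4e-05). The WT-O2 lungs varied for Gdf15, WT-O2 3 being the highest, and all were above every WT-RA lung. Eda2r (ENSMUSG00000034457), a death-domain receptor, was at 1.26, 1.61 and 1.82 CPM in WT-RA and 49.4, 40.3 and 48.9 CPM in WT-O2, a log2 fold change of 4.88 ± 0.16 (edgeR adjusted p = 4.5e-11). Psrc1 (4.55), a spindle protein, Zmat3 (2.26), an RNA-binding growth inhibitor, Ccng1 (1.95), Aen (1.93), a nuclease of apoptosis, Bax (1.5), the pore former of the mitochondrial death pathway, and Mdm2 (1.15), which degrades p53, also rose. Exceptions lay in the same list: Btg2 (-0.12) and Plk2 (-0.09) were not called, and Bbc3 (0.38) and Pmaip1 (0.79), which encode the death proteins PUMA and NOXA, stayed under 2-fold. By an adjusted p under 0.1 alone, 17 members had a positive change and 1 a negative change. The lowest value of the list was -0.60.

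Promoter windows from RefSeq (GRCm38.p6), 250 bases before to 50 after each start, were searched on both strands for the p53 decamer, a unit that occurs in pairs in many p53 binding sites. It was in the windows of 7 of the 17 list members with a window, beside 9.55% of the 27025 genes in that table. The sequences shown are stretches upstream of the start of 3 called members, with the decamer in capitals, and are descriptions of letters, not of binding.
Cdkn1a, chr17:29090903-29090962, plus strand: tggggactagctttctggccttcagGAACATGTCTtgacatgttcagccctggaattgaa
Ccng1, chr11:40755437-40755496, minus strand: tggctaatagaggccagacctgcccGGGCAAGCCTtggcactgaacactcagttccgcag
Mdm2, chr10:117710910-117710969, minus strand: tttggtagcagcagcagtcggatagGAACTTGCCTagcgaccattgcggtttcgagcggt

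NRF2 targets rose as a group but less steeply. Of 20 tested members 9 were called higher and none lower, 19 had an adjusted p under 0.1 with a positive change, beside 24.5% of all tested genes, and the median was 0.76. Srxn1 (ENSMUSG00000032802), which repairs oxidized peroxiredoxins, was at 10.3, 10.5 and 11.2 CPM in WT-RA and 45.7, 50.9 and 64.7 CPM in WT-O2, a log2 fold change of 2.33 ± 0.12 (edgeR adjusted p = 6.4e-09). Gpx2 (ENSMUSG00000042808), a glutathione peroxidase, was at 9.21, 9.42 and 8.53 CPM in WT-RA and 41.4, 46.7 and 40.7 CPM in WT-O2, a log2 fold change of 2.24 ± 0.12 (edgeR adjusted p = 7.5e-09). Nqo1 (ENSMUSG00000003849), the quinone reductase that is the standard NRF2 readout, was at 2.76, 2.22 and 2.13 CPM in WT-RA and 9.38, 9.08 and 10.7 CPM in WT-O2, a log2 fold change of 2.04 ± 0.18 (edgeR adjusted p = 6.2e-07). For these 3 genes the groups were far apart, and the spread within a group was small. Txnrd1 (1.48) and Gclc (1.11), for thioredoxin and glutathione, the NADPH source Me1 (1.51) and heme oxygenase Hmox1 (1.70) followed. Gstm1, a glutathione transferase, overlapped between the groups (0.02). Antioxidant enzymes outside the NRF2 list were mostly not called: Sod1 (-0.14) and Sod2 (0.57), the superoxide dismutases, and Cat (-0.52), catalase, were not, while the metallothioneins Mt1 (1.05) and Mt2 (1.26) were called higher. Without WT-O2 2 these were 0.91 and 0.99, just short of 2-fold, and Mt1 was 0.96 without WT-RA 3.

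The antioxidant response element was searched as TGACNNNGC on both strands. It was in the windows of 8 of the 17 NRF2 list members with a window, beside 14% of all genes in the table. The 3 stretches shown upstream of Txnrd1, Gclm and Prdx1 carry it in capitals, in each case as the reverse complement.
Txnrd1, chr10:82859089-82859147, plus strand: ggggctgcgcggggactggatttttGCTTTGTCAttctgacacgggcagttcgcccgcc
Gclm, chr3:122245398-122245456, plus strand: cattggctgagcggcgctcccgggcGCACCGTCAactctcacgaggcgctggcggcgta
Prdx1, chr4:116685441-116685499, plus strand: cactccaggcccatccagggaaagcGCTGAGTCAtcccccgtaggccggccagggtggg

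Of these, only Txnrd1 was called, while Gclm (0.85) and Prdx1 (0.42) had adjusted p values of 3.2e-05 and 0.0012 in edgeR and changes under 2-fold.

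Genes of the integrated stress response, the ATF4 program of amino acid and redox supply, shifted by modest amounts. Among 17 tested members 2 were called higher, Atf3 (1.46) and the folate enzyme Mthfd2 (1.11), and 14 had an adjusted p under 0.1 with a positive change, with a median of 0.71. Asns (ENSMUSG00000029752), asparagine synthetase, was at 13.5, 13.7 and 12.3 CPM in WT-RA and 23.8, 27.4 and 26.0 CPM in WT-O2, a log2 fold change of 0.96 ± 0.10 (edgeR adjusted p = 2.5e-06) just under the 2-fold threshold, which it passed without WT-O2 1 (1.02). The element of this program, searched as TGATGNAA on both strands, was in the windows of 5 of 16 members (Atf3, Trib3, Chac1, Asns and Nupr1), beside 4.51% of all genes. The stretches upstream of Atf3 and Asns are shown, the former with the reverse complement, the latter with the forward letters.
Atf3, chr1:191183411-191183468, minus strand: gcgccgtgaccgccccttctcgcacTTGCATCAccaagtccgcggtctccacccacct
Asns, chr6:7693210-7693257, minus strand: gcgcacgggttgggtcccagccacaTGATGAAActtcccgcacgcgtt

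By comparison, none of the 12 genes of the unfolded protein response was called, and their median was 0.10; Hspa5, the main chaperone of the endoplasmic reticulum, was at 399, 457 and 416 CPM in WT-RA and 520.2, 494 and 449 CPM in WT-O2, with overlapping groups. Among 15 HIF targets and glycolytic genes 4 were called higher in hyperoxia and 1 lower, the former including the glucose transporter Slc2a1 (1.14) and Ankrd37 (1.43).

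Wound matrix and its proteases formed a further group that rose. Of 17 genes of TGF-beta signaling and wound matrix 9 were called higher and none lower, with a median of 1.15. Positive changes were seen in 11 members and negative changes in 6. The lowest, Tgfbr3 (-0.96), was called lower without WT-RA 3 (-1.11). Thbs1 (ENSMUSG00000040152), thrombospondin, an activator of latent TGF-beta, was at 142, 142 and 142 CPM in WT-RA and 702, 644 and 1059 CPM in WT-O2, a log2 fold change of 2.49 ± 0.29 (edgeR adjusted p = 7.1e-05). Spp1 (ENSMUSG00000029304), osteopontin, was at 11.0, 7.84 and 5.64 CPM in WT-RA and 58.5, 60.7 and 63.7 CPM in WT-O2, a log2 fold change of 2.90 ± 0.21 (edgeR adjusted p = 3.4e-07). The ligand Tgfb1 itself was at 170.3, 156 and 209 CPM in WT-RA and 168, 172 and 191 CPM in WT-O2, with overlapping groups and a log2 fold change of -0.01. Among 18 metalloproteinases and inhibitors 9 were called higher and none lower (median 0.97). Timp1 (ENSMUSG00000001131), an inhibitor of matrix metalloproteinases, was at 2.37, 3.23 and 4.47 CPM in WT-RA and 40.4, 61.1 and 55.7 CPM in WT-O2, a log2 fold change of 3.96 ± 0.20 (edgeR adjusted p = 8.8e-09). Mmp3 (ENSMUSG00000043613), a stromelysin, was at 5.79, 5.75 and 2.37 CPM in WT-RA and 33.2, 27.8 and 41.6 CPM in WT-O2, and Mmp2, the gelatinase of fibroblasts, at 396, 429 and 589.9 CPM in WT-RA and 1122, 1128 and 1027 CPM in WT-O2. Both rose in all hyperoxia lungs relative to all room air lungs, by 2.88 and 1.21 on the log2 scale.

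The collagens and the elastic fiber genes had positive medians, with members that fell in both lists. Of 15 collagens 4 were called higher and none lower, with a median of 0.62, and Col5a1 (0.82) was called as well without WT-RA 3 (1.04). Col12a1 (ENSMUSG00000032332), a fibril-associated collagen, was at 36.0, 47.1 and 54.7 CPM in WT-RA and 227, 190.2 and 208 CPM in WT-O2, a log2 fold change of 2.18 ± 0.21 (edgeR adjusted p = 1.1e-05). Col1a1, the main chain of fibrillar collagen, was at 1109.9, 1393 and 1849 CPM in WT-RA and 2307, 2123 and 2280.4 CPM in WT-O2, a log2 fold change of 0.62 ± 0.15 (edgeR adjusted p = 0.0040), and Col3a1 overlapped between the groups (0.16). Over all tested genes 24.5% had an adjusted p under 0.1 with a positive change and 24.7% with a negative one. Of 15 collagens 10 and 1 did so, and of 15 elastic fiber genes 8 and 4. The elastic fiber genes had a median of 0.31. None was called higher and 2 were called lower, but without WT-RA 3 the fibrillin Fbn2 (0.76) and the cross-linking enzyme Loxl2 (0.87) were called higher, at 1.25 and 1.19. Mfap4 (ENSMUSG00000042436), a microfibril protein and among the most abundant transcripts of these lungs, was at 9480.2, 9143 and 11117 CPM in WT-RA and 4462, 5228 and 3438 CPM in WT-O2, a log2 fold change of -1.18 ± 0.15 (edgeR adjusted p = 2.2e-05). Mfap2, another microfibril protein, had -1.40. Eln (ENSMUSG00000029675), elastin, was at 8418, 11007 and 14707 CPM in WT-RA and 6643, 7668 and 7242 CPM in WT-O2, lower in every hyperoxia lung than in any room air lung, with a log2 fold change of -0.66 ± 0.20 (edgeR adjusted p = 0.017) that was under 2-fold. The cross-linking enzyme Lox (0.74) and the fibrillin Fbn1 (0.74) had positive changes under 2-fold, with adjusted p values of 0.0025 and 0.00045 in edgeR.

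**Figure D2:**
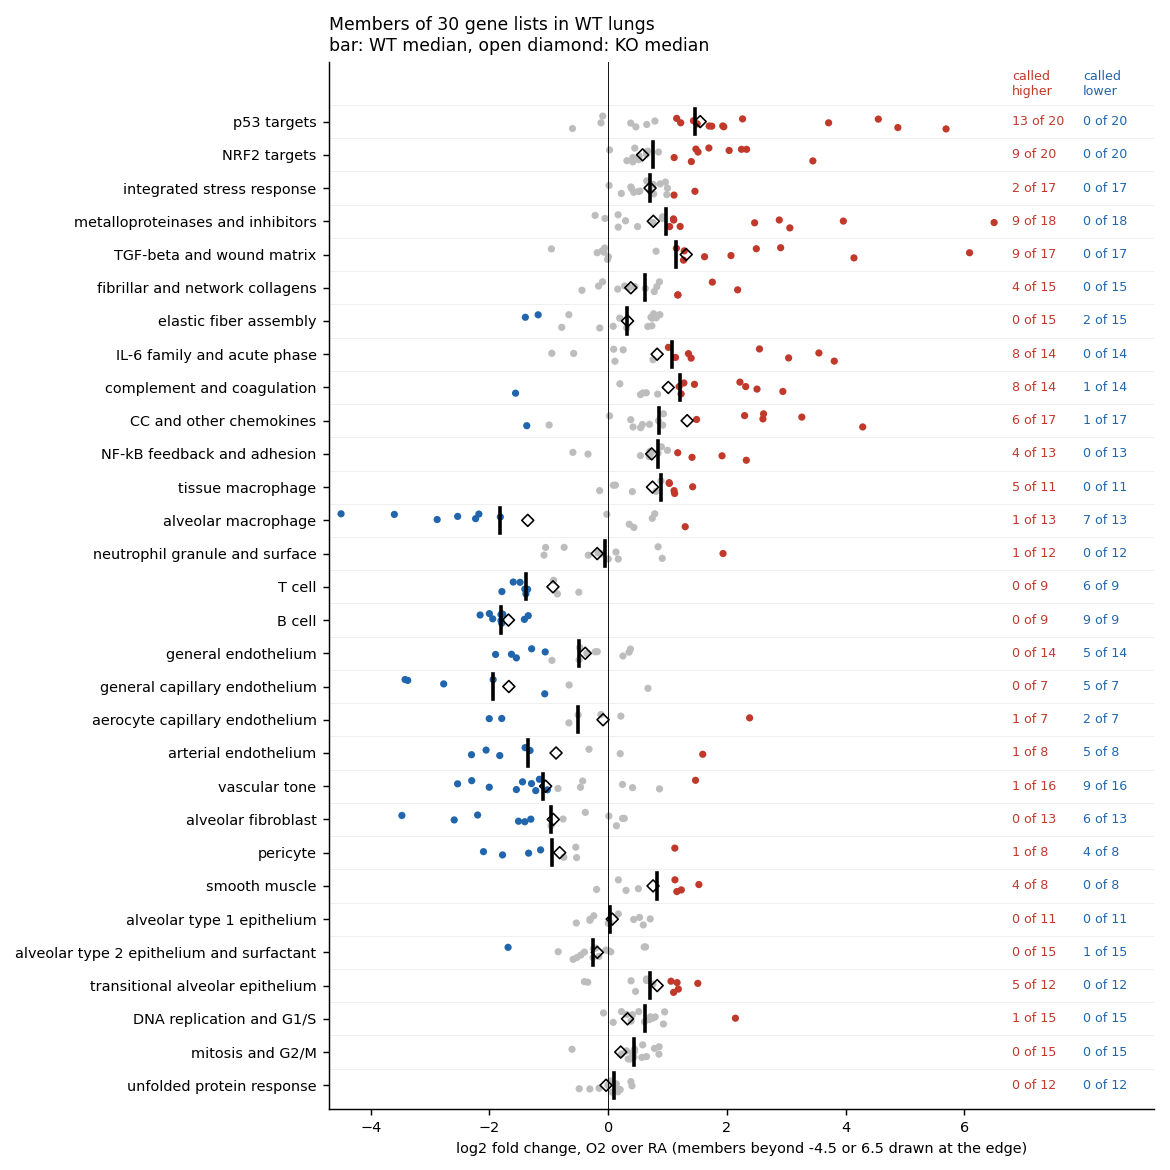
Each row is a gene list and each point a member, placed by its log2 fold change in WT-O2 relative to WT-RA; red and blue mark called members, black bars the WT medians, and open diamonds the medians of the same members in KO-O2 relative to KO-RA. The medians of the p53, NRF2, wound matrix, acute phase and complement lists lie to the right of 0, with 13 of 20 p53 targets called higher, and those of lymphocytes, capillary and arterial endothelium and alveolar fibroblasts to the left, with 9 of 9 B cell genes called lower.

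The blood vessel genes fell selectively. In whole lung RNA fewer cells of a type and less RNA per cell cannot be told apart, and this holds for every cell type described from here on. The pan-endothelial genes Cdh5 and Pecam1, which encode junction proteins of all endothelium, were at 1546, 1466 and 1382 CPM in WT-RA and 1365, 1133 and 1279.6 CPM in WT-O2 for the former and 877, 799 and 799 CPM in WT-RA and 690.2, 600.0 and 637 CPM in WT-O2 for the latter. Their log2 fold changes were -0.22 and -0.36, neither of them called. Over 14 general endothelial genes the median was -0.49, with 5 called lower, among them the transcription factors Sox17 (-1.63), Sox18 (-1.29) and Erg (-1.06) and the receptor Clec14a (-1.90). General capillary cells, the stem-like capillary cells of the alveolus, carried the largest falls: 5 of 7 markers were called lower, with a median of -1.94. Aplnr (ENSMUSG00000044338), the apelin receptor, was at 205, 235 and 244 CPM in WT-RA and 26.2, 23 and 16.7 CPM in WT-O2, a log2 fold change of -3.38 ± 0.22 (edgeR adjusted p = 4.6e-07). Kit (ENSMUSG00000005672), the receptor of stem cell factor, was at 247, 217 and 221 CPM in WT-RA and 19.8, 23.2 and 20.9 CPM in WT-O2, a log2 fold change of -3.42 ± 0.10 (edgeR adjusted p = 4.5e-11). Gpihbp1 (ENSMUSG00000022579), which anchors lipoprotein lipase, was at 197, 159.7 and 163 CPM in WT-RA and 22.8, 30.1 and 23.1 CPM in WT-O2, a log2 fold change of -2.77 ± 0.27 (edgeR adjusted p = 2.0e-05). For each of these 3 genes every hyperoxia lung was more than 5-fold below every room air lung. Plvap, which forms the diaphragms of endothelial fenestrae, passed narrowly (-1.07, and -0.998 without WT-RA 1), and Cd93, another marker of the list, had a positive change under 2-fold (0.67).

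Markers of the aerocyte, the large capillary cell of gas exchange, were mixed. Apln (ENSMUSG00000037010), the ligand of the apelin receptor, rose from 102, 91.0 and 85.5 CPM to 411, 523 and 519 CPM, a log2 fold change of 2.38 ± 0.16 (edgeR adjusted p = 1.1e-07). Ednrb (ENSMUSG00000022122), an endothelin receptor, fell from 147, 118 and 98.4 CPM to 33.4, 31.4 and 25.6 CPM, a log2 fold change of -2.0 ± 0.14 (edgeR adjusted p = 9.0e-08). Car4, the membrane carbonic anhydrase of these cells, stayed under 2-fold (-0.51). Within the apelin pair the ligand was higher and the receptor lower in every hyperoxia lung than in any room air lung.

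Most arterial genes fell too, with 5 of 8 called lower, 1 called higher and a median of -1.36. Sema3g (ENSMUSG00000021904), a semaphorin of arterial endothelium, was at 228, 176 and 177 CPM in WT-RA and 43.9, 33.9 and 39.6 CPM in WT-O2, a log2 fold change of -2.30 ± 0.15 (edgeR adjusted p = 5.8e-08). Gja4 (ENSMUSG00000050234), connexin 37, was at 83.5, 103 and 168 CPM in WT-RA and 26.9, 29.8 and 28.5 CPM in WT-O2, a log2 fold change of -2.06 ± 0.28 (edgeR adjusted p = 0.00024). Hey1, a Notch target, had -1.83, and Gja5, connexin 40, -0.32, the latter not called. Venous genes were split: Vwf, von Willebrand factor, was called lower by a small margin (-1.03), which leaving out WT-RA 1 (-0.97), WT-RA 2 (-0.99), WT-O2 2 (-0.91) or WT-O2 3 (-0.89) took below 2-fold, whereas Selp, P-selectin, which captures leukocytes, rose from 1.26, 1.65 and 1.82 CPM to 9.41, 5.78 and 8.58 CPM. Of 6 lymphatic genes, Lyve1, which macrophages also express, was called higher (1.52) and Prox1, the lymphatic master regulator, was not (0.18).

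The growth factor systems of vessels changed in part. Of 13 genes of the VEGF and angiopoietin systems 2 were called higher and 2 lower, with log2 fold changes from -2.47 to 3.06. Vegfa, Kdr and Flt1, the ligand and receptors of the VEGF system, had log2 fold changes of -0.20, 0.17 and -0.16 with overlapping groups, and none was called. In the angiopoietin system the receptor Tek (-2.47) fell and Angpt2 (1.77), an antagonist of it in many settings, rose. In the vascular tone list 9 of 16 genes were called lower and 1 higher, with a median of -1.09. Agtr1a (ENSMUSG00000049115), the angiotensin receptor, was at 34.9, 28.0 and 25.6 CPM in WT-RA and 5.35, 6.40 and 6.21 CPM in WT-O2, a log2 fold change of -2.30 ± 0.14 (edgeR adjusted p = 1.7e-08). Gucy1a1 (ENSMUSG00000033910), a subunit of the nitric oxide receptor guanylate cyclase, was at 399, 369 and 374 CPM in WT-RA and 188, 159.5 and 164 CPM in WT-O2, a log2 fold change of -1.16 ± 0.09 (edgeR adjusted p = 2.0e-07). Edn1, endothelin, was at 30.2, 30.7 and 32.8 CPM in WT-RA and 50.6, 57.3 and 62.7 CPM in WT-O2 (0.86, not called), and Nos3, endothelial nitric oxide synthase, at 53.9, 44.4 and 46.5 CPM in WT-RA and 55.2, 61.0 and 76.1 CPM in WT-O2 (0.41, not called). The adrenomedullin system was chosen after its values were seen: the receptor subunit Calcrl was at 1045, 868 and 627 CPM in WT-RA and 198, 129 and 111 CPM in WT-O2, a log2 fold change of -2.54 ± 0.25 (edgeR adjusted p = 1.3e-05), and the ligand Adm had one of 1.47. Thbd (ENSMUSG00000074743), thrombomodulin, the anticoagulant receptor of capillaries, was at 811, 721 and 625 CPM in WT-RA and 283, 236 and 212 CPM in WT-O2, a log2 fold change of -1.56 ± 0.13 (edgeR adjusted p = 3.4e-07), whereas Procr (ENSMUSG00000027611), the endothelial protein C receptor, rose from 2.69, 3.33 and 3.30 CPM to 19.8, 20.1 and 31.8 CPM.

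In the stroma, genes of alveolar fibroblasts and pericytes fell and those of smooth muscle rose. Of 13 alveolar fibroblast markers 6 were called lower and none higher, with a median of -0.96. Inmt (ENSMUSG00000003477), a methyltransferase of these cells, was at 1141, 920.3 and 522 CPM in WT-RA and 86.0, 61.8 and 84.5 CPM in WT-O2, a log2 fold change of -3.48 ± 0.44 (edgeR adjusted p = 0.00023). Pdgfra (ENSMUSG00000029231), the receptor that guides septal fibroblasts, was at 361, 271 and 181 CPM in WT-RA and 65.9, 52.0 and 59.2 CPM in WT-O2, a log2 fold change of -2.20 ± 0.21 (edgeR adjusted p = 8.5e-06). Both were uneven in room air, lowest in WT-RA 3, but no hyperoxia lung reached that level. Slc7a10 (ENSMUSG00000030495), an amino acid transporter, was at 74.6, 66.6 and 74.2 CPM in WT-RA and 10.4, 17.1 and 8.21 CPM in WT-O2, a log2 fold change of -2.59 ± 0.22 (edgeR adjusted p = 3.5e-06). Fgf10 (0.27) and Wnt2 (0.01), signals from fibroblasts to epithelium, were not called and overlapped between the groups. Among 8 pericyte genes 4 were called lower, Cox4i2 (-2.10), Kcnk3 (-1.78), Lamc3 (-1.34) and Higd1b (-1.14), and 1, Cspg4 (1.12), which encodes NG2, was called higher.

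Smooth muscle genes were higher in 4 of 8 cases, with a median of 0.82. Acta2 (ENSMUSG00000035783), smooth muscle actin, was at 209.6, 300.3 and 448 CPM in WT-RA and 697, 685 and 752 CPM in WT-O2, a log2 fold change of 1.16 ± 0.29 (edgeR adjusted p = 0.0088). Actg2 (ENSMUSG00000059430), another contractile actin, was at 14.7, 23 and 26.7 CPM in WT-RA and 70.5, 51.9 and 63.2 CPM in WT-O2, a log2 fold change of 1.53 ± 0.32 (edgeR adjusted p = 0.0040). Without WT-RA 1 the change of Acta2 was 0.93, under the threshold. Markers of the alveolar myofibroblast, the elastin-making cell of the septum, had a median of 0.05, and only Acta2, shared with smooth muscle, was called among 11. The summed level of these markers in WT-RA ranged from 856 to 1847 CPM, wider than the range of 1744 to 1883 CPM in WT-O2. Decorin, Dcn, of adventitial fibroblasts rose (1.5), and so did 3 of 7 mesothelial genes, Msln (1.87), Wt1 (1.64) and Rspo1 (1.17). The mesothelial genes were uneven within groups: Msln was at 38, 63.3 and 15.1 CPM in WT-RA and 77.3, 187 and 163 CPM in WT-O2, lowest in WT-RA 3, and the log2 fold change of Rspo1 was 0.88 without that lung and 0.91 without WT-O2 2, both below 2-fold.

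The alveolar epithelium changed less. None of 11 genes of the flat alveolar type 1 cell was called, with a median of 0.03: Aqp5, a water channel, was at 225, 225 and 211 CPM in WT-RA and 201, 234 and 227 CPM in WT-O2, and Pdpn, podoplanin, at 128, 126 and 109.7 CPM in WT-RA and 123, 131 and 118 CPM in WT-O2, with overlapping groups. Ager, the abundant receptor of type 1 cells, was at 2670.4, 2579.6 and 2489 CPM in WT-RA and 2006, 2264 and 1991 CPM in WT-O2, a log2 fold change of -0.31 ± 0.09 (edgeR adjusted p = 0.013). In the surfactant-producing type 2 cell 1 of 15 genes was called, the lysozyme Lyz1 (-1.69), and 7 had an adjusted p under 0.1 with a negative change, beside 24.7% of all tested genes. Sftpc (ENSMUSG00000022097), surfactant protein C, was at 14132, 12957 and 13032 CPM in WT-RA and 8176, 9904 and 9782 CPM in WT-O2, a log2 fold change of -0.53 ± 0.11 (edgeR adjusted p = 0.0018). Sftpa1 (ENSMUSG00000021789), surfactant protein A, was at 1760.5, 1655 and 1192 CPM in WT-RA and 814, 838 and 917 CPM in WT-O2, a log2 fold change of -0.84 ± 0.15 (edgeR adjusted p = 0.00061). Both were lower in every hyperoxia lung than in any room air lung, with fold changes under 2, whereas Sftpb (0.00) and Sftpd (-0.04) overlapped. Of 12 genes of the keratin-rich transitional state between type 2 and type 1 cells 5 were called higher and none lower. Cldn4 (ENSMUSG00000047501), a claudin of this state, was at 4.82, 5.45 and 5.19 CPM in WT-RA and 11.1, 20.3 and 12.6 CPM in WT-O2, a log2 fold change of 1.51 ± 0.22 (edgeR adjusted p = 0.00010). Sfn (1.16), a 14-3-3 protein that p53 also induces, was called as well, and Krt8 had 0.64 with an edgeR adjusted p of 3.2e-05.

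Airway genes moved little as lists, with medians of -0.31 for club and secretory cells and 0.29 for ciliated cells. Scgb1a1, the club cell secretoglobin, had -0.40, and Foxj1, the regulator of cilia, 0.44, neither called. Genes of fluid clearance shifted toward higher values: Scnn1b, a subunit of the epithelial sodium channel, went from 108, 106 and 87.5 CPM to 248, 254 and 254 CPM, and Ano1, a chloride channel, from 71.5, 72.7 and 66.2 CPM to 224, 199.9 and 208 CPM. Their log2 fold changes were 1.33 and 1.59, and the other sodium channel subunits Scnn1a (0.81) and Scnn1g (0.85) stayed under 2-fold. Aqp1, a water channel found mainly in capillaries, had -0.94, not called.

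**Figure D3:**
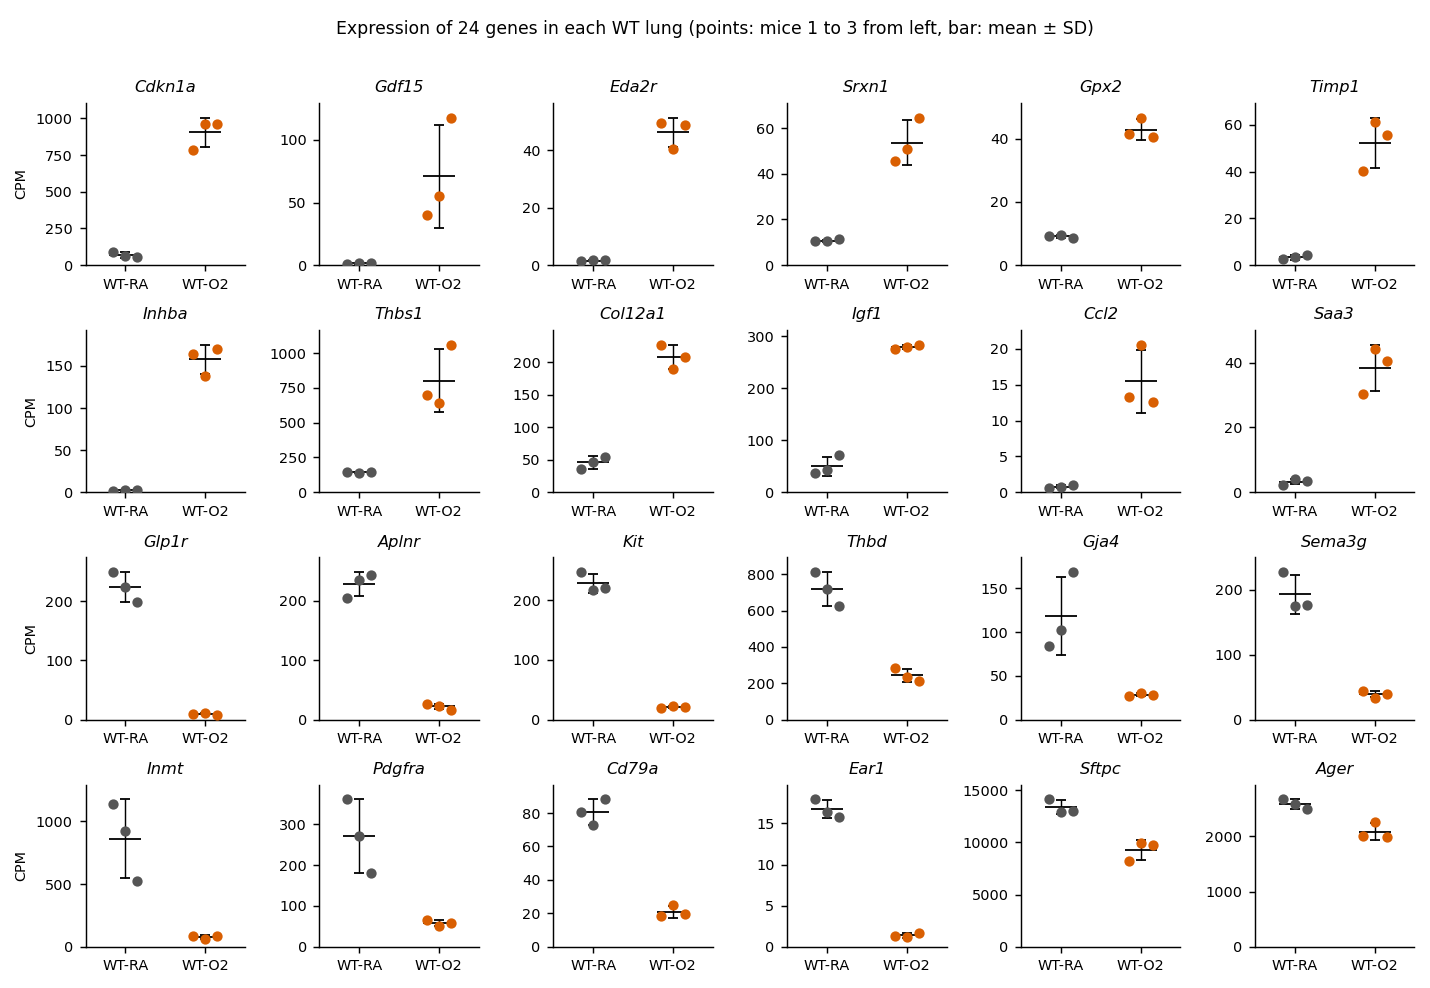
CPM of 24 genes in each of the 6 WT lungs, with mice 1 to 3 of a group from left to right, the mean as a bar and the SD as whiskers, on linear axes that start at 0. For all 24 genes the 3 hyperoxia lungs are apart from the 3 room air lungs, with wide gaps for Inhba or Aplnr and narrow gaps for Sftpc and Ager.

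More chemokine, acute phase and complement genes were called higher than lower, and genes of the neutrophil itself were mostly not called. Among 17 CC and other chemokines 6 were called higher and 1 lower. Ccl7, which attracts monocytes, was at 0.140, 0.740 and 0.447 CPM in WT-RA and 3.07, 5.57 and 4.26 CPM in WT-O2, and Cxcl10, which attracts T cells, at 0.977, 1.14 and 0.722 CPM in WT-RA and 5.63, 6.06 and 5.71 CPM in WT-O2. Cxcl5 (ENSMUSG00000029371), which attracts neutrophils, was at 0.140, 0.740 and 1.14 CPM in WT-RA and 4.57, 3.65 and 4.22 CPM in WT-O2, a log2 fold change of 2.61 ± 0.50 (edgeR adjusted p = 0.0012) that was 3.22 without WT-RA 3. All 3 were scarce. Of 5 neutrophil-recruiting chemokines tested 3 were called higher and 0 lower. The summed level of that list was nevertheless 645 to 694 CPM in WT-RA and 431 to 595 CPM in WT-O2. Granule and surface genes of neutrophils had a median of -0.05: S100a8 was at 12.8, 9.18 and 10.2 CPM in WT-RA and 10.4, 7.36 and 7.73 CPM in WT-O2 and S100a9 at 17.3, 13.0 and 16.1 CPM in WT-RA and 16.4, 13.3 and 13.4 CPM in WT-O2, with overlapping groups. The only called gene of that list was Lcn2 (ENSMUSG00000026822), at 144, 169 and 142 CPM in WT-RA and 509.8, 608 and 621 CPM in WT-O2, a lipocalin that epithelium also makes. In the IL-6 and acute phase list 8 of 14 genes were called higher with a median of 1.07. Saa3 (ENSMUSG00000040026), serum amyloid A, was at 2.37, 4.07 and 3.37 CPM in WT-RA and 30.4, 44.1 and 40.6 CPM in WT-O2, a log2 fold change of 3.55 ± 0.21 (edgeR adjusted p = 3.4e-08). Lif (3.04) and Il11 (2.55, and 3.14 without WT-RA 1), cytokines of the IL-6 family, and Socs3 (1.13), their feedback inhibitor, also rose, and Il6 reached 0.955, 2.10 and 1.93 CPM from 0.209, 0.0673 and 0.0688 CPM.

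Of 14 complement and coagulation genes 8 were called higher and 1, Thbd, lower, with a median of 1.21. C4b (ENSMUSG00000073418), of the classical pathway, was at 34.5, 41.0 and 11.9 CPM in WT-RA and 163, 151 and 183 CPM in WT-O2, a log2 fold change of 2.51 ± 0.44 (edgeR adjusted p = 0.0018). Cfb (ENSMUSG00000090231), of the alternative pathway, was at 8.83, 14 and 7.64 CPM in WT-RA and 55.6, 38.4 and 48.0 CPM in WT-O2, a log2 fold change of 2.22 ± 0.22 (edgeR adjusted p = 8.9e-06). Plau (ENSMUSG00000021822), urokinase, was at 5.06, 5.82 and 4.68 CPM in WT-RA and 22.4, 27.1 and 28.1 CPM in WT-O2, a log2 fold change of 2.32 ± 0.16 (edgeR adjusted p = 8.2e-08). The room air lungs were lowest for C4b and Cfb in WT-RA 3, and the hyperoxia lungs were above all of them. Interferon-stimulated genes did not rise as a list (median -0.06, none of 15 called higher and 2 lower, Rsad2 at -1.63 and Gbp2 at -1.09, the latter -0.91 without WT-RA 1).

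Macrophage genes split by kind. Of 11 general macrophage genes 5 were called higher and none lower, C1qa (1.12), C1qb (1.11), C1qc (1.03), Cd68 (1.03) and Folr2 (1.42), while Csf1r, the receptor on which macrophages depend, had 0.09. C1qc and Cd68 passed narrowly: C1qc was 0.97 without WT-RA 1 and 0.96 without WT-RA 3, and Cd68 was 0.99 without WT-RA 1 or WT-O2 3 and 0.998 without WT-O2 2, all under 2-fold. Gpnmb (ENSMUSG00000029816), a marker of activated macrophages, was at 9.42, 10.1 and 7.09 CPM in WT-RA and 49.1, 47.3 and 58.0 CPM in WT-O2, a log2 fold change of 2.54 ± 0.18 (edgeR adjusted p = 2.5e-07). Trem2 (ENSMUSG00000023992), a lipid receptor of these cells, was at 4.43, 4.71 and 4.75 CPM in WT-RA and 11.8, 14.6 and 15.6 CPM in WT-O2, a log2 fold change of 1.59 ± 0.15 (edgeR adjusted p = 1.4e-06). Alveolar macrophage genes fell for 7 of 13 members and rose for 1, with a median of -1.82. Ear1 (ENSMUSG00000072601), an eosinophil-type ribonuclease of alveolar macrophages, was at 17.9, 16.5 and 15.8 CPM in WT-RA and 1.26, 1.14 and 1.72 CPM in WT-O2, a log2 fold change of -3.60 ± 0.25 (edgeR adjusted p = 7.5e-08). Siglecf (ENSMUSG00000039013), their lectin, was at 7.92, 6.76 and 6.60 CPM in WT-RA and 2.18, 1.75 and 2.09 CPM in WT-O2, a log2 fold change of -1.82 ± 0.24 (edgeR adjusted p = 3.1e-05). Krt79 (-2.23) and the lipid droplet protein Cidec (-2.88) fell with them, but Marco, a scavenger receptor, went from 13.3, 15 and 12.1 CPM to 28.6, 28.4 and 42.4 CPM, and Pparg, the factor that specifies these cells, had 0.43, not called. Ear1 and Ear2 are close relatives, so their reads may have been divided between them. The chitinase-like Chil3 was at 388, 635 and 269 CPM in WT-RA and 22.6, 32.5 and 168 CPM in WT-O2, and its fall of -2.54 lost its call without WT-RA 2 or WT-O2 2 (edgeR adjusted p = 0.11 for each) and was -3.96 without WT-O2 3.

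B and T cell genes were lower in hyperoxia. All 9 B cell genes were called lower, with a median of -1.81. Cd79a (ENSMUSG00000003379), of the B cell receptor, was at 80.8, 73.0 and 88.1 CPM in WT-RA and 18.2, 24.9 and 19.6 CPM in WT-O2, a log2 fold change of -1.95 ± 0.21 (edgeR adjusted p = 1.9e-05). Ighm (ENSMUSG00000076617), the heavy chain of IgM, was at 245, 256 and 243 CPM in WT-RA and 71.1, 73.0 and 68.8 CPM in WT-O2, a log2 fold change of -1.81 ± 0.16 (edgeR adjusted p = 2.1e-06). Among 9 T cell genes 6 were called lower (median -1.39), among them Cd3e, at 4.36, 4.10 and 4.02 CPM in WT-RA and 1.88, 1.24 and 1.65 CPM in WT-O2, a log2 fold change of -1.39 ± 0.22 (edgeR adjusted p = 0.00015). Thymus genes such as Themis (-1.89) were called lower in 3 of 5 cases, and the summed level of that list was 24.5 to 27.0 CPM in WT-RA and 7.26 to 10.2 CPM in WT-O2. Its part in the T cell values was not tested. Of 8 natural killer cell genes none was called lower and 1 higher, Gzmb, a granzyme at 0.768, 0.505 and 0.310 CPM in WT-RA and 1.77, 0.860 and 1.22 CPM in WT-O2, whose call was lost without WT-RA 2, WT-RA 3 or WT-O2 1 (edgeR adjusted p = 0.12, 0.14 and 0.19). Dendritic cell genes were mixed, with 2 of 8 called higher and 4 lower. Xcr1 (1.80) and Itgae (1.79), found on the cross-presenting subset, rose, and Ccr7 (-1.54), worn by migrating cells, was among those that fell. In the list of group 2 innate lymphoid cells, mast cells and basophils 4 of 8 genes were called higher and 1 lower, Gata3 (-1.40), a transcription factor that T cells also use, while Hdc, which makes histamine, had -0.82. The mast cell proteases rose, Cma1, a chymase, from 0.593, 0.875 and 1.03 CPM to 12.3, 16.8 and 17.7 CPM, and Cpa3, a carboxypeptidase, from 2.97, 3.77 and 2.37 CPM to 11.7, 18.4 and 15.6 CPM, with log2 fold changes of 4.22 and 2.32. Red cell genes fell in 10 of 11 cases, with a median of -2.40, and the list took 1.57% to 1.81% of the counts in WT-RA and 0.292% to 0.413% in WT-O2. The alpha globin copies Hba-a1 and Hba-a2 are nearly identical and cannot be separated.

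The developmental lists held genes called in both directions. Of 23 Wnt genes 4 were called higher and 6 lower. Sfrp1 (ENSMUSG00000031548), a secreted Wnt inhibitor, was at 7.68, 9.42 and 7.02 CPM in WT-RA and 74.0, 64.4 and 67.3 CPM in WT-O2, a log2 fold change of 3.09 ± 0.23 (edgeR adjusted p = 1.2e-06). Wif1 (ENSMUSG00000020218), another inhibitor, was at 15.4, 13.5 and 25.9 CPM in WT-RA and 4.30, 3.99 and 4.56 CPM in WT-O2, a log2 fold change of -2.09 ± 0.21 (edgeR adjusted p = 3.4e-06). Lef1 (ENSMUSG00000027985), a transcription factor of the pathway and itself a target, was at 18.8, 16.5 and 19.1 CPM in WT-RA and 5.56, 4.78 and 6.62 CPM in WT-O2, a log2 fold change of -1.68 ± 0.12 (edgeR adjusted p = 1.2e-07). The inhibitors thus moved in opposite directions, and Axin2, the general target gene, had -0.26. In the Hedgehog, FGF and BMP list, Gli1 (1.04), a target of Hedgehog signaling, was called higher by a margin lost without WT-RA 1 (0.90), WT-O2 2 (0.94) or WT-O2 3 (0.99), and Bmp6 (ENSMUSG00000039004), a BMP ligand of endothelium, fell from 156, 141 and 140.4 CPM to 42.9, 38.8 and 42.9 CPM. Of 20 lung transcription factors 12 had an adjusted p under 0.1 with a negative change and 2 with a positive change, the mesenchymal factors Foxf1 (-0.86) and Tbx4 (-0.46) among the former, and the epithelial factors Nkx2-1 (-0.15) and Foxa1 (0.03) among those that did not pass. Sox11 (ENSMUSG00000063632), a factor of immature tissue, was at 44.4, 40.7 and 47.8 CPM in WT-RA and 7.26, 8.05 and 7.09 CPM in WT-O2, a log2 fold change of -2.57 ± 0.12 (edgeR adjusted p = 2.2e-09).

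Growth and vitamin A genes held some of the clearest single changes. Cdkn1c, an imprinted inhibitor of the cell cycle, went from 109, 101 and 93.1 CPM to 30.5, 31.2 and 31.7 CPM, a log2 fold change of -1.70 ± 0.09 (edgeR adjusted p = 8.8e-09), opposite to the related inhibitor Cdkn1a. Igf2 had 0.64, not called. In retinoic acid metabolism, the synthesizing enzymes Aldh1a3, at 0.663, 1.92 and 0.963 CPM in WT-RA and 6.65, 13.1 and 14.6 CPM in WT-O2, and Aldh1a2 (1.90) rose. The degrading enzyme Cyp26b1 (ENSMUSG00000063415) was at 59.8, 60.4 and 43.8 CPM in WT-RA and 8.28, 9.19 and 3.92 CPM in WT-O2, a log2 fold change of -2.94 ± 0.38 (edgeR adjusted p = 0.00022), and Lrat, which stores retinol as ester, had -1.58. The receptors Rara (-0.18) and Rarb (-0.15) were not called.

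Cell cycle genes did not fall beside the rise of Cdkn1a. Of 15 replication genes 12 had an adjusted p under 0.1 with a positive change and none with a negative change, and of 15 mitosis genes 9 and none. The medians were 0.61 and 0.44, and with all lungs the only called gene was Ccnd1 (ENSMUSG00000070348), cyclin D1, at 126, 121 and 144 CPM in WT-RA and 615, 545 and 563 CPM in WT-O2, a log2 fold change of 2.14 ± 0.10 (edgeR adjusted p = 1.6e-09). Without WT-RA 3 the mitosis genes Aurkb (0.86), Ccnb1 (0.85) and Cdk1 (0.78) were called higher too, at 1.06, 1.13 and 1.05. Mki67, the proliferation marker, was at 48.9, 60.4 and 70.3 CPM in WT-RA and 105, 63.7 and 75.0 CPM in WT-O2, with overlapping groups. Among 17 genes of apoptosis and necroptosis, Bax and Mlkl (1.43), the effector of necroptosis, were called higher, and Bcl2l11, an activator of apoptosis, lower (-1.03, and -0.96 without WT-RA 1). Of 15 genes of pyroptosis and the inflammasome 1 was called, Casp4 (1.15), which senses intracellular endotoxin and cleaves gasdermin D, and without WT-RA 3 it was just under 2-fold (0.99). Gsdmd itself, Casp1, which also cleaves it, and the cytokine Il18 had log2 fold changes of -0.27, -0.58 and -0.85, none called. Scaled to library totals alone, Gsdmd was at 41.2, 43.2 and 40.4 CPM in WT-RA and 32.1, 36.2 and 34.9 CPM in WT-O2. The groups did not overlap, as for 49.8% of all tested genes. By qRT-PCR the study reported the opposite direction, a rise of Gsdmd with hyperoxia in WT lungs.

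Calls differed among the metabolic and circadian lists. Of 13 xenobiotic enzymes 1 was called higher and 3 lower, and of 17 circadian genes 3 higher and 1 lower. None of 15 sterol and fatty acid genes was called, although 11 had an adjusted p under 0.1 with a positive change. Of the xenobiotic enzymes, Cyp2e1 (ENSMUSG00000025479) was at 19.7, 18.4 and 17.8 CPM in WT-RA and 1.88, 1.34 and 0.912 CPM in WT-O2, and Fmo2, the main lung monooxygenase, had -1.42. In the circadian list the core factors Arntl (0.13) and Clock (0.10) did not pass, while Bhlhe40, which represses the clock and answers to many stresses, rose from 43.5, 40.4 and 39.9 CPM to 136, 155 and 158 CPM, and Hlf, a clock output, fell from 33.8, 35.6 and 53.9 CPM to 10.6, 12.6 and 11.6 CPM.

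The room air lungs were the more uneven group for several programs. Zbtb16, a glucocorticoid-induced factor, was at 64.7, 72.0 and 5.09 CPM in WT-RA, and Tsc22d3, the glucocorticoid-induced leucine zipper, at 555, 344 and 147 CPM, both lowest in WT-RA 3. WT-O2 lungs were at 12.2, 16.7 and 11.8 CPM and 163, 121 and 124 CPM, overlapping with room air. Both were called lower in the fit of all 12 lungs. Fitted on the 6 WT lungs alone Zbtb16 was not called (edgeR adjusted p = 0.21), nor without the filter on low counts (0.13). Of the omissions of a WT lung, only that of WT-RA 3 left Zbtb16 called, with edgeR adjusted p values of 0.14 to 0.24 for the other 5 omissions, and Tsc22d3 lost its call without WT-RA 1 (0.18), WT-O2 2 (0.12) or WT-O2 3 (0.12). Tgfbi, a matrix protein of myofibroblasts, ran the other way in room air, at 97.1, 189 and 486 CPM and highest in WT-RA 3, and was not called (-0.29). Within WT-O2, Clca1, a mucus protein, was at 29.3, 42.9 and 327 CPM and Retnla, a resistin-like protein, at 89.5, 338 and 428 CPM. Neither was called, but Clca1 was without WT-O2 3 (-4.01). Of other tissues, skeletal muscle markers summed to 5.68 to 11.4 CPM in WT-RA and 6.08 to 16.5 CPM in WT-O2, and liver markers to 1.88 to 2.02 and 3.31 to 5.51 CPM. Heart and pulmonary vein muscle genes summed to 217 to 449 CPM and 223 to 264 CPM. Acta1, of striated muscle, was at 3 counts or fewer in every WT-RA library and at 0.273, 5.02 and 0.507 CPM in WT-O2, at least 18.8-fold higher. Its fitted log2 fold change, which for so few counts depends on the prior count, was 4.73, and 2.44 without WT-O2 2.

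The same genes in GSDMD-KO lungs give a comparison that shares no sample with the WT one. Y-linked genes summed to 3.31, 108 and 158 CPM in KO-RA and to 144, 123 and 167 CPM in KO-O2. Sex was thus not balanced between the genotypes, and its part in the values was not tested. Of the 1952 genes called in WT lungs 1886 moved the same way in GSDMD-KO lungs. The share of all tested genes that did so was not computed, so this count has no background here. In GSDMD-KO lungs 10.6% of all tested genes were called and 52.4% did not overlap between the exposures. The median log2 fold change there was 1.29 for genes that rose in WT and -1.23 for genes that fell. For p53 targets the medians were 1.47 in WT and 1.55 in GSDMD-KO lungs, for NRF2 targets 0.76 and 0.58, for general capillary genes -1.94 and -1.67, for alveolar fibroblast genes -0.96 and -0.93, and for B cell genes -1.81 and -1.68. Other lists were further apart: red cell genes had -2.40 and -0.33, with 10 and 2 of 11 called lower, heart and pulmonary vein muscle genes -0.69 and 0.11, and neutrophil-recruiting chemokines 1.90 and 3.03. The difference was not tested for any list. The red cell list took 2.73%, 1.78% and 1.30% of the counts in KO-RA and 2.57%, 2.86% and 0.610% in KO-O2. KO-O2 3 was thus below every KO-RA lung, and the other KO-O2 lungs were not. Values of single genes, WT first, were for Inhba 6.09 and 6.59, Cdkn1a 3.71 and 3.49, Thbs1 2.49 and 2.56, Aplnr -3.38 and -3.06. Wider apart were Alas2, the red cell enzyme of heme synthesis (-2.41 and 0.11), Mcpt4 (5.53 and 3.66), Nos3 (0.41 and -0.50) and Hpgd (-3.33 and -2.48), with unadjusted interaction p values of 0.0067, 0.0096, 0.00022 and 0.0011 in edgeR. For none of these was the adjusted interaction p below 0.1, as it was for 1 of all tested genes (0.00595%), so no difference between the genotypes is shown for them. Mif, a macrophage cytokine measured in the study by PCR, had 1.54 and 1.55, and Pik3cg, a leukocyte kinase, 0.20 and 0.66.

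**Figure D4:**
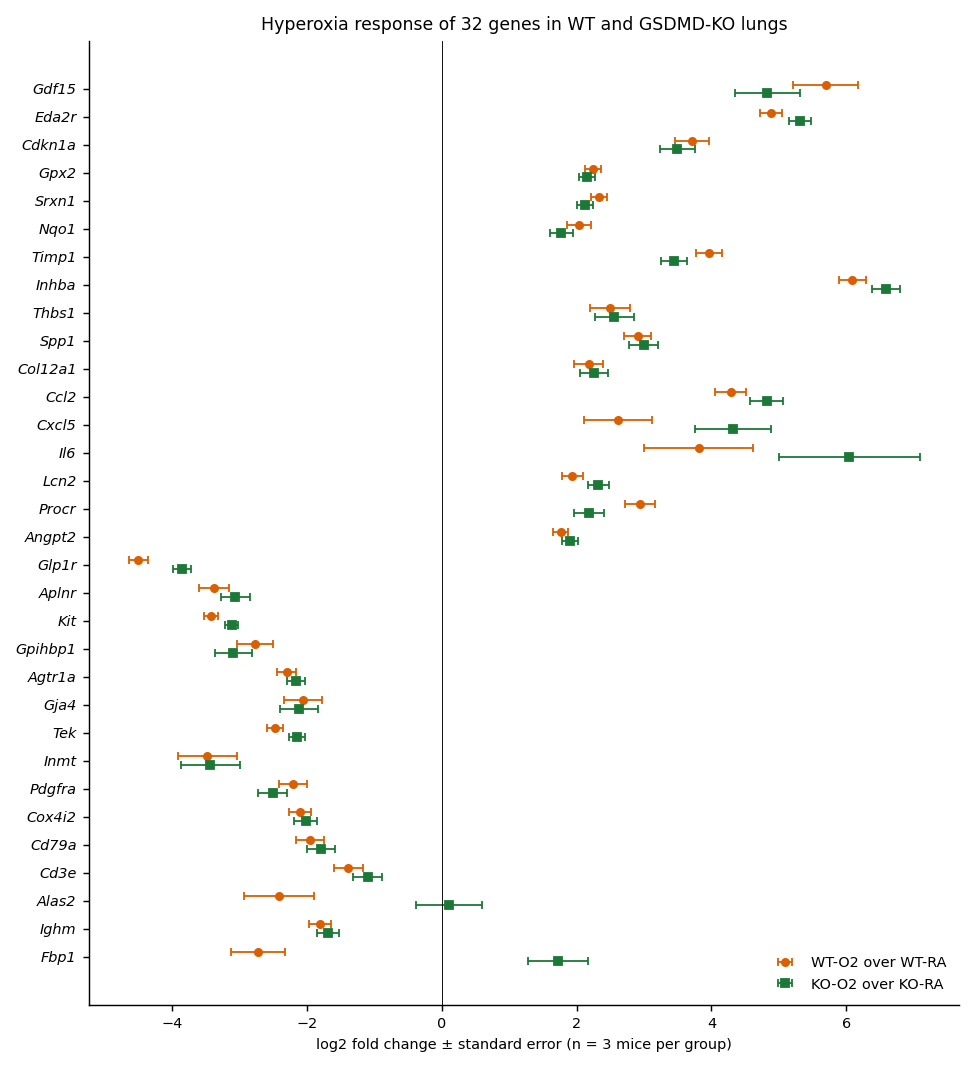
Log2 fold changes of 32 genes with their standard errors (n = 3 mice per group), circles for WT-O2 relative to WT-RA and squares for KO-O2 relative to KO-RA. For 30 of the genes both points lie on the same side of 0, from Inhba at 6.09 and 6.59 to Glp1r at -4.5 and -3.85, and Alas2 and Fbp1 have a negative value in WT and a positive value in GSDMD-KO lungs. The genes were picked by hand. The share of all tested genes on the same side was not computed, so the count of 30 has no background.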

How the data were processed

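RNA from whole lung was sequenced, and per the labels the reads were checked with FastQC and assigned with kallisto. The authors deposited expected counts (estimated counts per gene) for each lung, and nothing was normalized in these values. The submitters' processing notes name the build mm10, and no coordinates from the files were used. The counts were rounded, rows were named with gene symbols through the reference table (35816 of 36109 genes), and genes with low counts were removed by filterByExpr, which left 16819. All 12 lungs were fitted with a term per group (edgeR 4.0.16 with limma 3.58.1 in R 4.3.3, TMM scaling, robust quasi-likelihood fit), so the WT contrast used a spread shared with GSDMD-KO lungs. The procedure was tested on simulated data. Totals of 28763661 to 29489506 counts per WT library leave counting error small for all but scarce genes. A gene at 3 counts or fewer in every library of a group was given only a bound on its fold change. Each library was its own mouse, and p values set a difference against a spread between mice estimated over all 12 lungs.

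Named genes are the 10 largest rises and falls with a mean of at least 5 CPM, the 6 largest with a mean of at least 100 CPM, the first 6 and the 4 smallest p values of each of 75 lists, the 5 most variable genes of each group with a mean of at least 10 CPM, Gsdmd and the genes the study measured by PCR, and genes with an interaction. The members and lists were chosen with earlier results of these data known, so list counts are descriptions. Adm, Axin2, Bbc3, Btg2, Calcrl, Fmo2, Folr2, Gstm1, Lamc3, Plk2, Pmaip1, Prdx1, Rara, Rarb and Tbx4 lie outside this rule and were chosen after their values were seen. Alternatives were other scalings, filters, thresholds, DESeq2 1.42.0, the 6 WT lungs alone, and each lung left out in turn. Some genes that the rule picks are not reported here.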

Additional observations from a re-analysis of the deposited data

Results flagged for a closer look

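Fbp1, a gluconeogenic enzyme also made by alveolar macrophages, was picked out because its response differed between genotypes. It was at 3.56, 5.01 and 2.92 CPM in WT-RA and 0.648, 0.378 and 0.709 CPM in WT-O2, a log2 fold change of -2.72 ± 0.40 (edgeR adjusted p = 8.7e-05), and fell in every WT hyperoxia lung relative to every room air lung. The value in GSDMD-KO lungs was 1.73. The difference of the responses, GSDMD-KO minus WT, was 4.45 on the log2 scale (standard error 0.60, edgeR adjusted p of the interaction 0.043). The cause was not tested.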

How the results depend on the processing

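With all lungs and the thresholds given, 1952 genes were called, 847 higher and 1105 lower. Requiring 10 CPM in at least 3 of 12 lungs left 825 called (389 higher and 436 lower), since fewer genes were tested. A fold of at least 1.5 gave 3923 (1821 and 2102), and no fold threshold 8268 (4114 and 4154). Other scalings, DESeq2, no filter, the 6 WT lungs alone, an adjusted p under 0.05 and leaving out erythroid genes gave 1811 to 2168. Leaving out each lung in turn gave 1865 to 2069 genes, 836 to 911 of them higher and 1029 to 1165 lower. The interaction was called for 1 gene by edgeR and for 109 by DESeq2, with 1130 and 1188 at an unadjusted p under 0.05, and the cause was not tested. No called gene named by the rule changed sign under any of these alternatives. Of the 549 genes named by the rule 523 to 534 kept their call or lack of one when a lung was left out, and 538 under DESeq2. No paired analysis was possible because the labels give no replicate numbers shared between the groups, each library being its own mouse. Depth limits the scarce genes, 67 of the called genes being at 3 counts or fewer throughout a group. Litter, cage and day are not given and cannot be told apart from the exposure. Without WT-O2 3, the only male of the 6, 1912 genes were called, and 534 of the 549 kept their call or lack of one.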
